A study of Mus musculus with 2 samples.

Results

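The Krüppel-like factors (KLFs) examined here are 10 genes chosen by name for their links to fat cell formation, namely Klf2, Klf3, Klf4, Klf5, Klf6, Klf7, Klf9, Klf10, Klf13 and Klf15. All 10 were found among the 46095 genes of the count table, and all 10 passed the filter of at least 10 counts summed over both libraries, which 17356 genes passed. RNA-seq was performed on C3H10 cells, a mouse mesenchymal line labelled as strain C57BL/6 that turns into adipocytes after induction. The strain label differs from the C3H in the name of the line, and it was not checked here. Both groups received 100 nM of an antisense oligonucleotide (ASO) before differentiation, either the negative control (ASO NC) or an ASO against MALAT1 (ASO MALAT1), and both were then grown to confluence, induced for 2 days with IBMX, dexamethasone, troglitazone and insulin, kept in insulin, and collected at day 6. Each group was 1 library, so no difference has a replicate check and every interval given here covers counting error only. The sources used here do not say which ASO against MALAT1 was sequenced.

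KLFs are transcription factors that bind GC-rich and CACCC sequences through a trio of zinc fingers at the C terminus, and differ in the part before it, which recruits activators or repressors. In adipogenesis they act in relays around PPARγ and C/EBPα. Klf4 is an immediate early gene that helps switch on Cebpb, Klf5 is induced by C/EBPβ and C/EBPδ and acts on the Pparg promoter, Klf6 represses the preadipocyte gene Dlk1, Klf9 and Klf13 have been placed upstream of Pparg, and Klf15 rises late and drives Slc2a4, the insulin-responsive glucose transporter. Klf2, Klf3 and Klf7 are known as brakes, Klf2 on Pparg and Klf3 on Cebpa through the corepressor CtBP, while Klf10 is a TGF-β-inducible repressor whose part in adipogenesis is less settled. Klf9 and Klf15 are also known targets of the glucocorticoid receptor.

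The promoters of the pair with the lowest log2 fold changes, Klf15 and Klf9, and of the pair nearest to 0, Klf4 and Klf13, are shown as the 250 bases before the RefSeq start site (GRCm38.p6), 5′ to 3′ on the gene's strand. Capitals mark CACCC (the KLF box), GGGCGG (the GC box), TGACG (the core of the cAMP response element) and CCAAT, each searched on both strands. Klf15 was read from chr6:90462326-90462575 on the plus strand, Klf9 from chr19:23140976-23141225 on the plus strand, Klf4 from chr4:55532476-55532725 on the minus strand and Klf13 from chr7:63938916-63939165 on the minus strand.
Klf15: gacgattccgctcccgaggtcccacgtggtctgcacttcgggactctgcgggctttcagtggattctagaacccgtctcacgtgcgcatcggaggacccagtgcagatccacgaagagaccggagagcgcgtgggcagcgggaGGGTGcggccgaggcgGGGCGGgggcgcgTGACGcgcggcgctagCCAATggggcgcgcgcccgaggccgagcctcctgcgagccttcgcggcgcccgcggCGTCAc
Klf9: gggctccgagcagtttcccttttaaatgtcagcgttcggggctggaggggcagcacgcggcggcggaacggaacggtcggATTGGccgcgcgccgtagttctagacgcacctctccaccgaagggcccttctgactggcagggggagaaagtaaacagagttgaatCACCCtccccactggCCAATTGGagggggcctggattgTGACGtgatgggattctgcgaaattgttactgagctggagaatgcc
Klf4: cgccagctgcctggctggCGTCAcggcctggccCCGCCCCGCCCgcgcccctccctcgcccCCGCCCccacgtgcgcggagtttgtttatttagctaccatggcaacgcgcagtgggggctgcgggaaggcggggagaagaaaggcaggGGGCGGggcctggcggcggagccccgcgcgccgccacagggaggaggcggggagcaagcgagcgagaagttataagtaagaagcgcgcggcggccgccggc
Klf13: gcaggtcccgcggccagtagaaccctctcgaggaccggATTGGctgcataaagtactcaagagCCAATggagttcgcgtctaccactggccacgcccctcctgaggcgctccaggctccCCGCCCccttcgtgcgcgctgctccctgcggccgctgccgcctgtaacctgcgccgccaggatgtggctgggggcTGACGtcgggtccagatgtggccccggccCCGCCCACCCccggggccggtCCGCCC

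Of the 10 genes, 8 had an entry in the promoter table. Klf5 and Klf10 are named only. CACCC was found in 6 of the 8, against 51.3% of the 27025 promoters of the same length. Among these, Klf3 held 5 matches, Klf7 held 3, and Klf2, Klf9, Klf13 and Klf15 held 1 each, while Klf4 and Klf6 held 0. By GENCODE M21, 133 of the 250 bases of Klf3 and 102 of those of Klf7 lie in exons of the gene itself. The same holds for 29 bases of Klf2 and 7 of Klf6, so matches in these windows are not all upstream of the gene. The whole Klf7 window (chr1:64121390-64121639) lies inside the GENCODE span of Klf7 (chr1:64029447-64122282). All its matches are thus within the gene as GENCODE places it, although they are counted here. GGGCGG was found in 7 of the 8, all but Klf9, against 32.9% of all promoters, with 6 matches in Klf3 and 4 in Klf4. TGACG was found in 5 of the 8, against 17.9%, with 2 matches in Klf15 and 1 each in Klf2, Klf4, Klf9 and Klf13. CCAAT was found in 4 of the 8, against 34.5%, with 4 matches in Klf6, 3 in Klf9, 2 in Klf13 and 1 in Klf15. Neighbouring matches can share bases, as for 2 of the CCAAT matches of Klf9 and for a CACCC beside a GC box in Klf13 and in Klf3. TATAAA and AGAACA, a hexamer of the glucocorticoid response element, had 0 matches in the 8 windows, against 13.0% and 16.2% of all promoters, which says only that these letters are not there. The 8 windows had a GC content from 59.2% in Klf7 to 78.4% in Klf3, against a median of 52.0% over all promoters. The lower genes Klf15 and Klf9 shared the KLF box, the cAMP core and the CCAAT box with each other and with Klf13, whose level hardly differed between the libraries. Any relation between motifs and fold changes was not tested.

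The ASO NC library held 58147539 counts and the ASO MALAT1 library 61653549. Malat1, the targeted RNA, fell from 170402 counts to 45396, or 24.7% of the control level (log2 fold change -2.01, 95% interval -2.03 to -2.00). Markers of mature adipocytes summed to 13970 CPM (counts scaled to library size) in ASO NC and 5864 CPM in ASO MALAT1, and 23 of 23 tested were lower, 21 of them by the 1.5-fold rule given below. That rule called 7.26% of all genes tested lower and 4.37% higher. Of the 24 adipocyte markers listed, Lep had 1 count in ASO NC and 0 in ASO MALAT1, so it was close to absent in both. Preadipocyte markers summed to 18080 and 19720 CPM, with 12 of 16 tested on the higher side, 1 called higher and 2 called lower, and Dlk1 at 0 counts in both libraries. Of 11 muscle markers, 7 were at 0 in both libraries, among them Myod1 and Myog, and the list summed to 8.32 and 5.88 CPM. Des alone gave 7.76 and 5.05 CPM of this, and was called lower (448 and 314 counts, log2 fold change -0.62). Of 11 endothelial and immune markers, 4 were at 0 in both, among them Ptprc, and the list summed to 3.88 and 2.88 CPM. Cd68 gave 2.981 and 1.915 CPM of this, and was called lower (172 and 119 counts, log2 fold change -0.64). Bone and cartilage markers summed to 1412 and 1906 CPM, with 1246 and 1682 CPM from Spp1 alone. Of 8 tested, 4 had an interval above 0 and 1 was called higher, Col2a1, which rose from 378 to 692 counts (log2 fold change 0.77, 0.58 to 0.95), while Sox9 had 6570 and 10050 counts (0.51, 0.46 to 0.55), Sp7 had 2 and 1 counts and Acan had 0 in both. In such bulk libraries, fewer adipocytes and less RNA per adipocyte cannot be told apart, and the part of this shift in the values of the KLFs was not tested.

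All 10 are protein-coding genes, placed by GENCODE M21 (GRCm38) at chr8:72319033-72321656 for Klf2, chr5:64803388-64832901 for Klf3, chr4:55527143-55532466 for Klf4, chr14:99298691-99315036 for Klf5, chr13:5861482-5870394 for Klf6, chr1:64029447-64122282 for Klf7, chr19:23141226-23168134 for Klf9, chr15:38291463-38300706 for Klf10, chr7:63886351-63938915 for Klf13 and chr6:90462576-90475238 for Klf15. They thus lie on 10 different chromosomes. The most abundant of the 10 genes per length was Klf6 and the least abundant was Klf5. Levels were compared as CPM, scaled by edgeR's TMM factors, per kilobase of all exons of a gene. Klf6 had 44.8 CPM per kb in ASO NC and 49.2 in ASO MALAT1. Klf4 came next in both, with 25.4 and 25.8 CPM per kb. At the other end, Klf5 had 0.963 and 1.31 CPM per kb, so the highest and lowest levels lay 46.5-fold apart in ASO NC and 37.5-fold apart in ASO MALAT1. In ASO NC the order between these ends was Klf9 with 20.5, Klf2 with 17.6, Klf13 with 15.9, Klf3 with 11.1, Klf15 with 9.55, Klf10 with 6.38 and Klf7 with 4.17 CPM per kb, and no neighbours had overlapping counting intervals. These intervals do not cover the lengths, on which the order depends. Before division by length, Klf3 had 125.1 CPM and Klf2 32.5 in ASO NC. The order in ASO MALAT1 differed at 2 points. Klf13, with 16.6 CPM per kb, passed Klf9 with 16.3 and Klf2 with 15.1, although the intervals of Klf13 (16.2 to 17.0) and Klf9 (15.8 to 16.8) overlapped. Klf10, with 7.77 CPM per kb, passed Klf15 with 6.03. Summed over the 10 genes, the level was 156.4 CPM per kb in ASO NC and 155.0 in ASO MALAT1, so the total of these 10 hardly moved while members shifted against each other. In CPM without division by length, the sum was 742.4 in ASO NC and 758.6 in ASO MALAT1, so the direction of this small difference depends on the lengths.

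**Figure D1:**
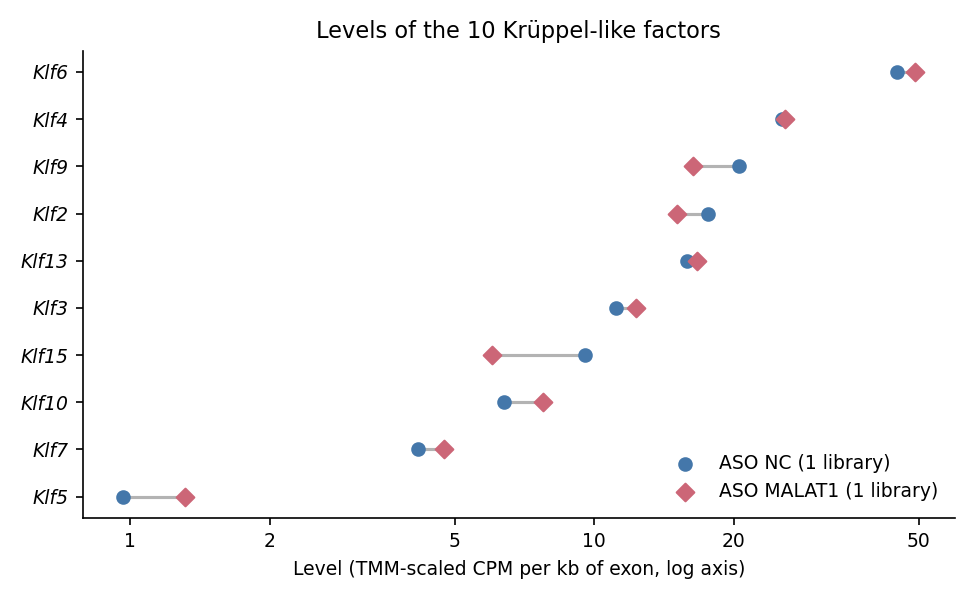
Level of each of the 10 Krüppel-like factors in TMM-scaled CPM per kilobase of exon (log axis), with a circle for the ASO NC library and a diamond for the ASO MALAT1 library. Klf15 shows the widest gap to the left, from 9.55 to 6.03, and Klf5, the least abundant, the widest gap to the right, from 0.963 to 1.31.

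Only Klf15 passed a call rule. Calls needed an adjusted p under 0.05, from exact binomial tests (two-sided) adjusted over all 17356 genes, and scaled levels at least 1.5-fold apart, or at least 2-fold apart for the stricter rule. Such a test says that the reads of the 2 libraries differ and says nothing of how cultures vary. At 1.5-fold, 1 of the 10 genes was called lower and 0 were called higher, where 7.26% of all genes tested were called lower and 4.37% higher. At 2-fold, 0 of the 10 were called in either direction, against 4.09% lower and 2.19% higher. Among the 9478 genes with mean counts within the range of the 10, from 356 to 12380, 2.99% were called lower and 1.99% higher at 1.5-fold, and 0.844% lower and 0.106% higher at 2-fold. The count of 1 in 10 rests on Klf15 alone, and with 10 genes 1 call more or less moves the share past the background in either direction.

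Below the fold lines, 9 of the 10 genes had a 95% interval that did not hold 0, with 6 above 0 and 3 below. Deep counts make such intervals narrow, since 64.2% of the genes in the same range of counts also had one. The median log2 fold change of the 10 was 0.10, against 0.01 for the genes in this range and 0.00 for all genes tested. Against the genes whose mean counts were within 2-fold of its own, Klf15 was the 1 member that lay outside the middle 90%, and the other 9 lay inside.

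**Figure D2:**
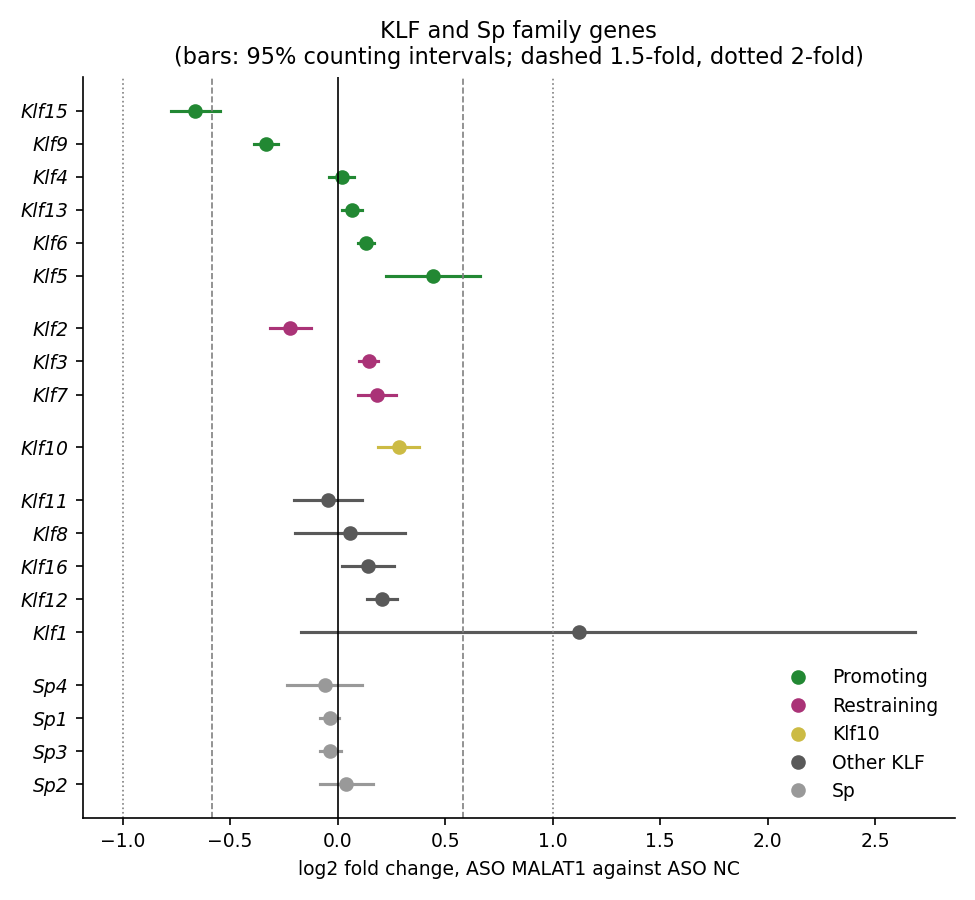
Log2 fold change of ASO MALAT1 against ASO NC for the 10 Krüppel-like factors and the other KLF and Sp genes that passed the filter, with 95% counting intervals as bars, a dashed line at 1.5-fold and a dotted line at 2-fold. Klf15 at -0.66 lies past the lower dashed line, and Klf1, with few counts, has an interval that holds 0.

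**Figure D3:**
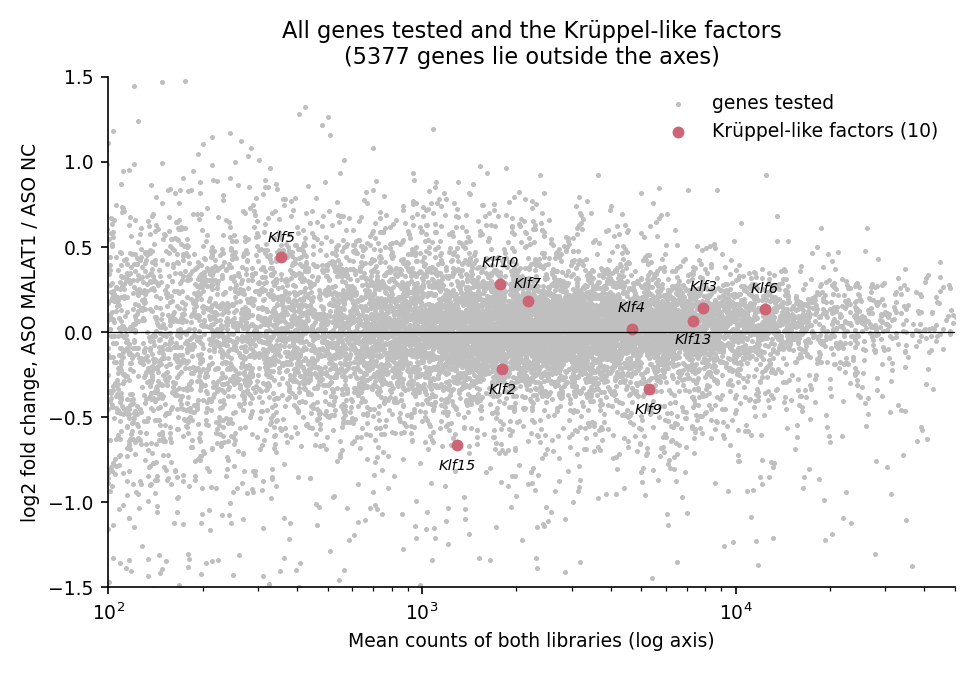
Log2 fold change against the mean counts of both libraries (log axis) for the genes tested, in grey, and the 10 Krüppel-like factors, in red. Of the 10, 9 sit within the grey cloud of genes with like counts and Klf15 at -0.66 sits at its lower edge, while 5377 genes lie outside the axes.

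Among the 6 factors known to promote adipogenesis, Klf15 and Klf9 lay below 0, Klf5, Klf6 and Klf13 above 0, and Klf4 could not be told from 0. Klf15, the activator of Slc2a4 and of amino acid breakdown, had 1538 counts in ASO NC and 1046 in ASO MALAT1, or 26.7 and 16.8 CPM. It fell to 63.2% of the control level (95% interval 58.3% to 68.4%), a log2 fold change of -0.66 (-0.78 to -0.55). Of the 4221 genes with mean counts within 2-fold of those of Klf15, 2.09% had a lower log2 fold change, and the middle 90% of them ran from -0.44 to 0.43. The interval covers the 1.5-fold line itself, and the call rests on the spread assumed between cultures. With edgeR's exact test and a preset biological coefficient of variation (BCV) of 0.1, Klf15 remained called (adjusted p = 0.0355), and with a preset of 0.2 edgeR no longer called it (adjusted p = 1, unadjusted p = 0.112).

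Klf9, a glucocorticoid-induced factor placed upstream of Pparg, had 5702 counts in ASO NC and 4875 in ASO MALAT1, or 98.8 and 78.5 CPM. Its log2 fold change was -0.33 (-0.39 to -0.28), which is 79.4% of the control level and under the fold line. Of the 3894 genes with like counts, 7.45% were lower still. The changes of Klf15 and Klf9 differed from each other by more than counting error, since the ratio of Klf15 to Klf9 counts was 0.270 in ASO NC and 0.215 in ASO MALAT1, a log2 difference of -0.33 (-0.46 to -0.20).

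Klf4, the early inducer of Cebpb, was the 1 gene of the 10 whose interval held 0. It had 4470 counts in ASO NC and 4878 in ASO MALAT1, or 77.5 and 78.5 CPM, a log2 fold change of 0.02 (-0.04 to 0.08). Klf13 was almost as close, with 6902 and 7773 counts, or 119.6 and 125.1 CPM, and a log2 fold change of 0.06 (0.02 to 0.11). For both, the counting interval lay well inside the 1.5-fold lines.

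Klf6, the repressor of Dlk1, had 11357 counts in ASO NC and 13409 in ASO MALAT1, or 196.8 and 215.8 CPM. Its log2 fold change was 0.13 (0.10 to 0.17), which is 109.7% of the control level. Dlk1 itself had 0 counts in both libraries, which allows up to 0.0520 CPM in ASO NC and 0.0483 in ASO MALAT1, so no relation between Klf6 and this target could be seen at day 6.

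Klf5, which acts early downstream of C/EBPβ and C/EBPδ, had the highest log2 fold change of the 10. It had 289 counts in ASO NC and 423 in ASO MALAT1, or 5.01 and 6.81 CPM, a log2 fold change of 0.44 (0.22 to 0.66). With the fewest counts of the 10, it also had the widest interval, from 117% to 158% of the control level, which reaches past the 1.5-fold line. Of the 2301 genes with like counts, 9.61% had a higher value, and the middle 90% ran from -0.69 to 0.56.

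The factors known to restrain adipogenesis did not move together. Klf2, the repressor of Pparg, had 1873 counts in ASO NC and 1732 in ASO MALAT1, or 32.5 and 27.9 CPM, a log2 fold change of -0.22 (-0.31 to -0.12). Klf3, the CtBP-dependent repressor of Cebpa, had 7216 and 8584 counts, or 125.1 and 138.2 CPM, a log2 fold change of 0.14 (0.10 to 0.19). Klf7, which blocks differentiation when overexpressed, had 1956 and 2391 counts, or 33.9 and 38.5 CPM, a log2 fold change of 0.18 (0.10 to 0.27). Klf2 was thus lower and both others higher in ASO MALAT1, all by less than 1.5-fold, and the ratio of Klf2 to Klf7 counts went from 0.958 to 0.724, a log2 difference of -0.40 (-0.53 to -0.27). The 3 restraining genes had a median log2 fold change of 0.14 and the 6 promoting genes one of 0.04. At 1.5-fold, 1 of the 6 promoting genes, Klf15, was called lower and 0 of the 3 restraining genes, and 0 of these 9 were called higher, against the background of 7.26% lower and 4.37% higher. The GENCODE M21 annotation places 3 noncoding genes on the opposite strand over exons of these repressors, with 3196 shared bases for Gm26649 and 4 for Gm13748 over Klf7, and 404 for Gm20033 over Klf3. Since strand use in the counting is not given in the sources used here, the counts of Klf7 and Klf3 could hold antisense reads.

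Klf10, induced by TGF-β, had 1538 counts in ASO NC and 2016 in ASO MALAT1, or 26.7 and 32.5 CPM. Its log2 fold change was 0.28 (0.19 to 0.38), which is 122% of the control level. Klf10 and Klf15 happened to have the same count in ASO NC, so the gap between 2016 and 1046 in ASO MALAT1 shows how they parted.

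Shares of the counts of the 10 genes do not depend on library scaling. They come from the same counts, so they are not a separate check, and a fall in some shares must raise others. Klf15 took 3.59% (Clopper-Pearson 95% interval 3.42% to 3.77%) of the 42841 counts in ASO NC and 2.22% (2.09% to 2.36%) of the 47127 counts in ASO MALAT1. Klf9 took 13.3% (13.0% to 13.6%) and 10.3% (10.1% to 10.6%), and Klf2 took 4.372% (4.18% to 4.57%) and 3.675% (3.507% to 3.849%). The space was taken up mainly by Klf6, which went from 26.5% (26.1% to 26.9%) to 28.5% (28.1% to 28.9%), and Klf3, from 16.8% (16.5% to 17.2%) to 18.2% (17.9% to 18.6%). The intervals of Klf4, at 10.4% in both libraries, and of Klf13, at 16.1% and 16.5%, overlapped between the libraries.

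In the rest of the family, 5 other KLF genes and 4 Sp genes were tested, and 0 were called at either fold. Of all genes tested, 7.26% were called lower and 4.37% higher at 1.5-fold. With so few genes, 0 calls is close to these shares and says little about the family. Of 7 other KLF genes, Klf14 and Klf17 had 0 counts in both libraries. Klf12, a close relative of Klf3, had 3076 counts in ASO NC and 3817 in ASO MALAT1, a log2 fold change of 0.20 (0.14 to 0.27), beside the 0.14 of Klf3. Klf16 had 1024 and 1215 counts and a log2 fold change of 0.14 (0.02 to 0.26). Klf11, a relative of Klf10, had 657 and 686 counts and a log2 fold change of -0.04 (-0.20 to 0.11), whose interval does not overlap that of Klf10. Klf8 had 243 and 272 counts, with 0.06 (-0.20 to 0.31), and Klf1, the erythroid factor, had 7 and 17 counts, with an interval from -0.17 to 2.69. The 4 tested Sp factors, which share the zinc fingers and bind GC boxes, had log2 fold changes from -0.06 to 0.04. Sp1 had 8117 and 8517 counts and a log2 fold change of -0.04 (-0.08 to 0.01), and Sp3 had 6575 and 6915 counts and -0.03 (-0.08 to 0.02). Sp2, at 0.04, and Sp4, at -0.06, also had intervals that held 0, and the other 5 Sp genes had at most 5 counts in a library. In GENCODE M21, Sp2 and Sp3 also carry antisense genes over 126 and 109 exonic bases.

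The genes that work with the KLFs, or are induced like them, were described by list, with 7.26% of all genes called lower and 4.37% higher at 1.5-fold as background. The 16 cofactors, among them the CtBP, Sin3 and histone deacetylase genes that repressor KLFs recruit, had a median log2 fold change of 0.08, against 0.00 for all genes tested, and 0 calls, with values from -0.04 to 0.30. The 24 immediate early genes, the class to which Klf4, Klf6 and Klf10 belong, had a median of -0.02, with 1 called, Atf3, a stress-induced factor that fell from 366 to 220 counts (log2 fold change -0.84, -1.09 to -0.60). They went both ways, with 6 intervals above 0 and 9 below. The 14 tested glucocorticoid targets had a median of -0.23, 10 on the lower side and 3 called lower at 1.5-fold. Glul, the glutamine synthetase gene, fell from 114551 to 75819 counts (-0.70), Sult1a1 from 16281 to 10116 (-0.79) and Fkbp5 from 351 to 246 (-0.62). Others lay on the higher side without a call, with Sgk1 at 0.35 (0.31 to 0.38), Errfi1 at 0.30 (0.07 to 0.52) and Pdk4 at 0.14 (0.11 to 0.17). Klf9 and Klf15 are not counted in the list.

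Of 18 adipogenic factors tested, 1 was called lower and 2 higher at 1.5-fold, with a median log2 fold change of -0.12. The same rule called 7.26% of all genes tested lower and 4.37% higher. Cebpa, the target of Klf3, fell from 4071 to 1652 counts (-1.41, -1.49 to -1.32), and Pparg, on whose promoter Klf2, Klf5 and Klf9 act, had 11816 and 8552 counts (-0.57, -0.61 to -0.53), just short of the fold line. The early factors around Klf4 and Klf5 differed little, with log2 fold changes of -0.06 for Cebpb, 0.03 for Cebpd and 0.17 (0.00 to 0.33) for Egr2. The genes called higher were Gata2, which rose from 659 to 1108 counts (0.64, 0.50 to 0.78), and Gata3, which rose from 124 to 211 (0.66, 0.33 to 0.99), both preadipocyte factors that hold back Pparg as Klf2 does. Each exceeded the changes of Klf2, Klf3 and Klf7, with intervals that did not overlap theirs. With edgeR's exact test at a preset BCV of 0.1, and likewise with counts divided by 4, 1 gene of this list was called higher, and at a preset BCV of 0.2 the list had 0 called higher and 0 called lower.

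Among 18 tested genes that have been linked to a KLF as targets, 6 were called lower and 0 higher at 1.5-fold, and 3 were lower at 2-fold. Over all genes tested, 7.26% were called lower and 4.37% higher at 1.5-fold, and 4.09% lower at 2-fold. With edgeR's exact test, 2 genes of this list were called lower at a preset BCV of 0.2 and 0 at 0.4. The 3 with the lowest values were Ucp3, which fell from 78 to 21 counts (log2 fold change -1.97, -2.77 to -1.29), Acacb, from 4569 to 1723 (-1.51), and Gpt, from 2312 to 984 (-1.34). Gpt, alanine aminotransferase, has been placed downstream of Klf15 in amino acid breakdown. On the other side, 7 of the 18 had values above 0. Intervals lay above 0 for 5 of the 18 and below 0 for 8. The highest value was that of Smad7, at 0.56 (0.36 to 0.76), without a call. The list was not split by the KLF to which each gene is linked. Slc2a4, the best known adipocyte target of Klf15, had only 26 and 17 counts, and its log2 fold change of -0.70 had an interval from -1.69 to 0.22, so a difference was not detectable at this depth. The median of the list, -0.46, falls in a gap between Slc2a4 at -0.70 and Thbd at -0.21, and moved between -0.70 and -0.17 with the settings tried. Many of these genes are also adipocyte enzymes, whose markers were lower as given above, and the part of either in their values was not tested.

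**Figure D4:**
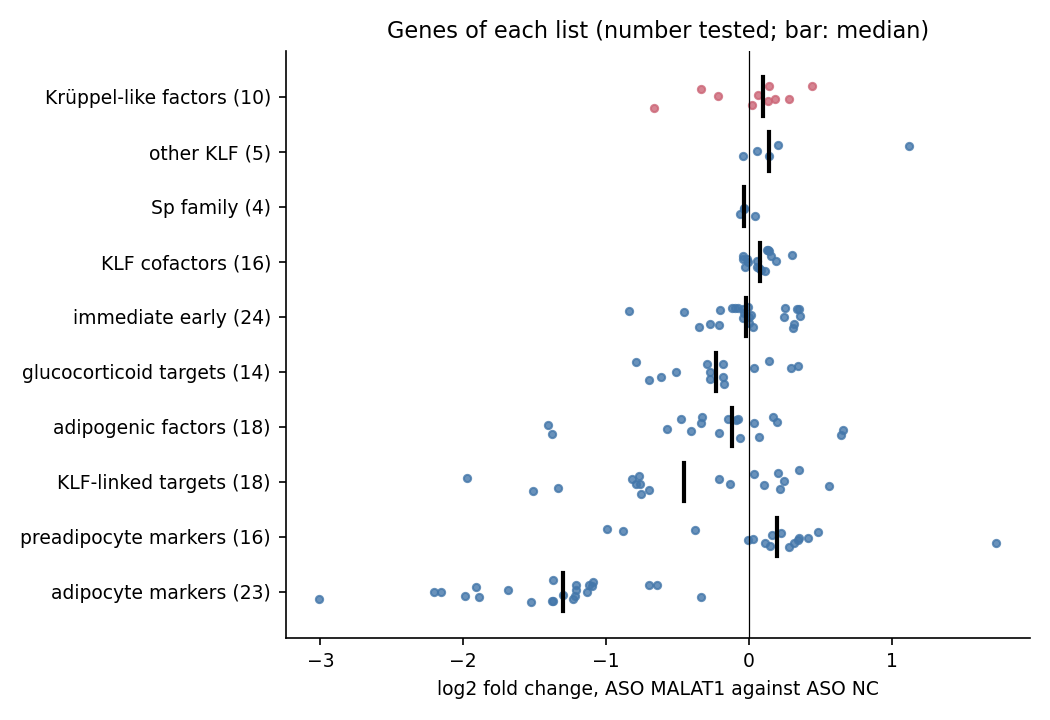
Log2 fold change of each tested gene of the lists, with the number tested in brackets and a bar at the median. The 10 Krüppel-like factors, in red, spread around a median of 0.10, near the cofactors and immediate early genes, whereas the adipocyte markers lie to the left around a median of -1.30.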

How the data were processed

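RNA-seq libraries were made from rRNA-depleted total RNA with a directional kit, 1 per group. The deposited counts are whole reads per gene symbol without normalization. The submitters' processing notes name HISAT2 and GRCm38, while the counting tool, annotation, strand setting and treatment of multi-mapping or duplicate reads are not given in the sources used here. Library sizes were scaled by TMM (edgeR 4.0.16, R 4.3.3). Genes whose counts in both libraries summed to 10 or more, 17356 in all, entered exact binomial tests (two-sided, scipy 1.17.1, Python 3.11.15), adjusted together by Benjamini and Hochberg's method, since a quasi-likelihood fit needs replicates. Log2 fold changes used a prior count of 0.5 and intervals are 95% Clopper-Pearson limits. A count of 0 allows up to 3 counts. Intervals and floors cover counting error only, and reads of 1 molecule counted more than once make them too narrow. The test was checked on simulated counts that held counting error only. Such a check cannot show how the test fares with spread between cultures. Lengths are the union of a gene's GENCODE M21 exons, found for 88.1% of tested genes. Copies of the KLF transcripts were searched with BLAST 2.17.0 (95% identity or more along 200 bases or more), which found only the antisense genes of Klf3 and Klf7. Promoters came from RefSeq (GRCm38.p6). Of 8 windows 4 are printed, since the other 4 overlap GENCODE exons of their gene. Proteins were not analysed here.

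The genes and lists were chosen with earlier results of these data known. Named were Malat1, the 10 KLFs, the other KLF and Sp genes over the filter, Pparg, Cebpa, Cebpb, Cebpd, Egr2, Gata2, Gata3, Dlk1 and Slc2a4. Added to these were up to 3 genes called at 1.5-fold per list and direction, outside the lists of cell type markers. Beyond this rule, Lep, Spp1, Sox9, Col2a1, Sp7, Acan, Myod1, Myog, Des, Ptprc, Cd68, Sgk1, Errfi1, Pdk4, Thbd and Smad7 were named after their values were seen. The lists were written by hand. Alternatives were other scalings (upper-quartile, DESeq2 1.42.0 size factors, plain totals), genes with at least 1 count or at least 10 in each library, prior counts of 0.125 and 2, edgeR's exact test with a preset BCV, and counts divided by 4.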

Additional observations from a re-analysis of the deposited data

How the results depend on the processing

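No alternative changed the direction of any of the 10 Krüppel-like factors. Over the scalings, filters, prior counts and counts divided by 4, the log2 fold change of Klf15 ran from -0.66 to -0.64, that of Klf9 from -0.33 to -0.31, that of Klf5 from 0.44 to 0.46 and that of Klf4 from 0.02 to 0.04, and the median of the 10 from 0.10 to 0.12. Klf15 was called lower at 1.5-fold, and the other 9 were not called, under each of these and with edgeR's exact test at a preset BCV of 0.1. At a preset BCV of 0.2 or 0.4 the log2 fold change of Klf15 stayed at -0.66 but the call was lost, leaving 0 of the 10.

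Of all genes tested, 2019 were called at 1.5-fold and 1090 at 2-fold. With a preset BCV of 0.1 these counts were 1079 and 667, with 0.2 they were 117 and 117, and with 0.4 they were 1 and 1. With counts divided by 4 they were 744 and 254. Among genes with 10 or more counts in both libraries separately, 562 were called at 2-fold. At a preset BCV of 0.2, 8 adipocyte markers were called lower, against 21 without it, and 0 genes were called among adipogenic factors, preadipocyte markers, immediate early genes and glucocorticoid targets. No paired analysis was possible because each group holds 1 library, and no library could be left out for the same reason. With 1 culture per group, a difference between cultures and an effect of the ASO cannot be told apart. Depth limits Slc2a4 and Klf1, whose few counts leave intervals that hold 0.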
